A study of Rattus norvegicus with 12 samples.

Results

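Circular DNA of 1 to 10 kb was examined in Circle-seq libraries of rat back skin. Its members were all entries of the deposited list of extrachromosomal circular DNA (eccDNA) that span 1000 bp or more and under 10000 bp from start to end on a nuclear chromosome, of any annotation and any confidence label. The rule gave 2390 entries of 228352, which is 1.05% of the list. They made up 4072 of 242843 detections of a circle in a library (1.68%), but 6.61% of the supporting reads in the library counts, or 147736 reads. The deposited totals per entry, which differ from the library counts, gave them 160834. A supporting read is a read split across the junction of a circle or a read pair that faces outward across it.

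The 12 libraries form 3 groups of 4, all from wild-type (WT) rats of the SD strain, an outbred laboratory stock. The 5 Gy x2 group had electron beam irradiation of the back once a week in fractions of 5 Gy, and its skin was collected on day 7 after 2 fractions. The 5 Gy x4 group was treated alike and collected on day 7 after 4 fractions. The control group was not irradiated, and the labels give neither its sampling time nor the age of any rat. Dose and time since the start of treatment differ together between the 5 Gy x4 and 5 Gy x2 groups and cannot be told apart. Separate animals are not stated for the replicates, and p-values cover the spread among libraries only, part of which can be technical.

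Circles of nuclear DNA form when a linear fragment is joined end to end, for example in the repair of broken DNA or during replication and apoptosis. Most eccDNA of normal tissue is shorter than a kilobase, about the size of nucleosomal DNA or a small multiple of it, and such circles rarely hold a whole gene. Circles of several kilobases can hold whole exons or regulatory elements, while the much larger amplified circles of tumours carry entire genes. Circle-seq removes linear DNA with an exonuclease and reads what remains, and a junction can be found only where reads happen to cover it.

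Most members lay close to the lower length bound. The median length was 1401.5 bp, with quartiles of 1146 and 2086.75 bp and a longest entry of 9946 bp. Of the 2390 entries, 1763 (73.8%) were shorter than 2000 bp, and 828 (34.6%) were shorter than 1200 bp, while 139 (5.82%) were 5000 bp or longer. Just inside the lower bound, the 194 shortest entries, within 50 bp of it, had a median of 5 supporting reads and 20.1% were found in more than 1 library, while the 271 entries within 50 bp below it had a median of 6 reads and 18.8% were shared. The 15 entries within 1000 bp below the upper bound had a median of 12 reads, and the 16 entries within 1000 bp above it had 43.5.

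By the deposited annotation, 1467 members (61.4%) were intergenic, against 60.0% of all eccDNA. Introns held 621 (25.98%, against 32.0% of all), exons 231 (9.67%, against 4.70%), and the 2 kb before and after genes 36 and 35. An entry typed exon overlaps an exon and need not hold a whole one. The exonic percentage was 9.06% among entries under 1200 bp and 13.7% among those of 5000 bp or more. The deposited label was lconf for 1709 members (71.5%, against 59.6% of all), conf for 415 and hconf for 266 (11.1%, against 26.4%). The table does not define these labels. Among members of 1 library, those labelled lconf had a median read depth over the circle of 1.82, against 44.0 for conf and 16.6 for hconf.

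Members fell into a large set seen once and a small set seen often. In all, 1875 (78.5%) were found in a single library, with a median of 3 supporting reads, and together they held 10.03% of the reads of the class. Of these, 1515 had no discordant pair, only split reads, and 85.5% were lconf. At the other end, 251 members (10.5%) were found in 4 or more libraries, with a median of 280 reads, and they held 74.4% of the reads. Discordant pairs made up 85.1% of the reads of these 251 circles and 34.8% of the reads of the single-library circles. Exons were the annotation of 5.18% of the recurrent circles and 10.6% of the single-library ones, and introns of 33.1% and 24.9%. Recurrence was counted with the same reads that set the medians, so these are descriptions of the 2 sets and not tests.

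**Figure D1:**
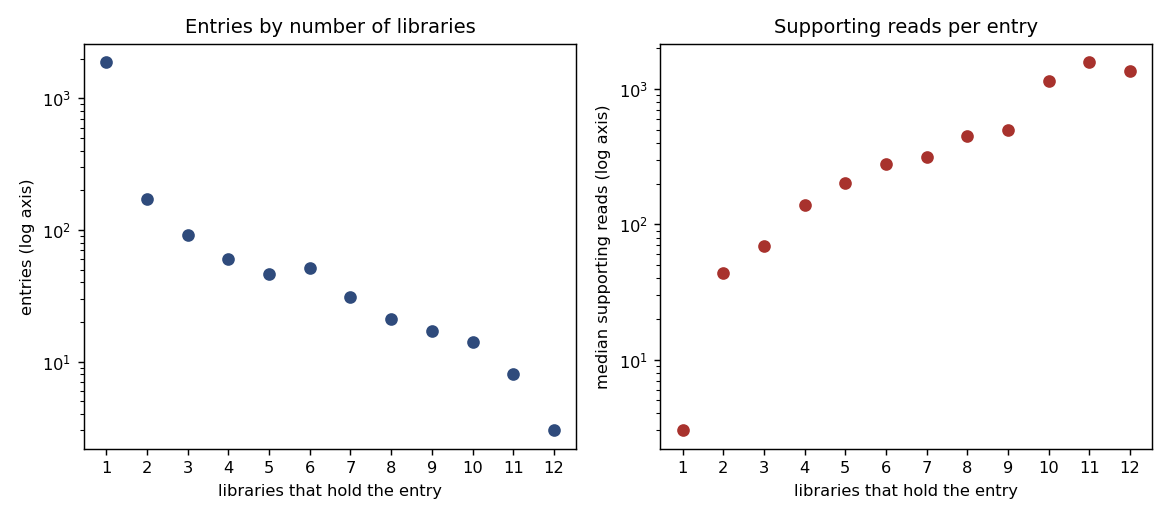
Number of members (left, log axis) and median supporting reads per member over all libraries (right, log axis) against the number of libraries, of 12, in which the member was found. There were 1875 members in 1 library with a median of 3 reads and 3 members in all 12 libraries with a median of 1354 reads.

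A shared entry was often the union of calls with different ends. Among the 515 entries found in 2 or more libraries, the median spread of the called starts was 257 bp and that of the ends 252 bp. The spread exceeded 100 bp at one end or the other in 442. A call shorter than 1000 bp was part of 231 shared entries (44.9%), and 52 had no call of 1000 bp or more, so that they reach a kilobase only as unions. Some calls were listed under more than 1 entry: 152 of the 4221 listed calls (3.60%), over 58 entries. Where a library had several calls in an entry, its deposited count was the reads of the last call listed and not their sum, in all 143 such cases, 3.51% of the 4072 detections. The library counts of members therefore sum to 147736 reads, below the 160834 of the table's totals. Only 22 shared entries had all their starts and all their ends within 10 bp.

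The member with most reads was among these 22. It is an intergenic circle of 1107 bp at chr1:180782889-180783995 (rn6), labelled hconf, with 7398 supporting reads. Its calls in 11 libraries were 1105 to 1107 bp long, with starts and ends that differed by 1 bp. It had 1110, 195, 392 and 527 reads in 5 Gy x2 replicates 1 to 4, 0, 336, 204 and 1175 reads in 5 Gy x4 replicates 1 to 4, and 478, 686, 1849 and 446 reads in control replicates 1 to 4. The groups overlapped, and 5 Gy x4 replicate 1 was the only library without it. Another precise circle, 1122 bp at chr12:466091-467212, had 644 and 105 reads in 5 Gy x2 replicates 1 and 4, 206 in 5 Gy x4 replicate 1 and 289 in control replicate 2, and none elsewhere. The longest member of all, 9946 bp at chr1:180904566-180914511, had identical ends in its 2 libraries, with 658 reads in 5 Gy x2 replicate 1 and 205 in control replicate 4. Of the 22 precise circles, 14 were in 2 libraries and 8 in 3 or more, 13 were found in irradiated and control skin, 7 in irradiated skin only and 2 in control skin only, and 7 lay in genes. The genic ones included intronic circles of Polr3b, which encodes a subunit of RNA polymerase III, and an exonic circle of Stk11, which encodes the kinase LKB1.

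In all, 3 members were found in all 12 libraries and 8 in 11. The 10 described here are the 3 and the 7 of the 8 with most reads. Of these 10, 7 lay in introns, against 33.1% of the 251 members in 4 or more libraries. The circle at chr15:41100423-41102982, in an intron of Mipep, which encodes a peptidase of mitochondrial protein import, spanned 2560 bp. It had 64, 40, 120 and 12 reads in 5 Gy x2, 100, 86, 50 and 39 in 5 Gy x4, and 196, 60, 80 and 105 in control libraries. The Pkd2 entry at chr14:6615218-6616717, in an intron of the gene for the cation channel polycystin-2, had 129, 15, 80 and 27 reads in 5 Gy x2, 51, 78, 69 and 186 in 5 Gy x4, and 36, 123, 57 and 75 in control libraries. The third, an intergenic entry of 2412 bp at chr10:67234383-67236794, had 30 to 140 reads in 5 Gy x2, 85 to 186 in 5 Gy x4 and 85 to 150 in control libraries. In all 3 the groups overlapped on these library counts. The counts leave out part of the reads, since each holds only the last call listed of a library. Over all calls the Mipep entry had 1695 reads from 20 calls, the Pkd2 entry 1111 from 14 and the chromosome 10 entry 1354 from 15. The calls varied widely within an entry, from 960 to 2355 bp for Mipep and from 503 to 1497 bp for Pkd2.

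The other widespread intronic entries included those in Tdrp (2925 bp), Tm6sf1 (1930 bp), Cnga3 (1404 bp) and Calr3 (3986 bp). Cnga3 encodes a channel of cone photoreceptors. The Cnga3 entry had no call longer than 892 bp. An intergenic entry spanned 7197 bp at chr18:38418647-38425843, with calls of 2709 to 7149 bp.

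**Figure D2:**
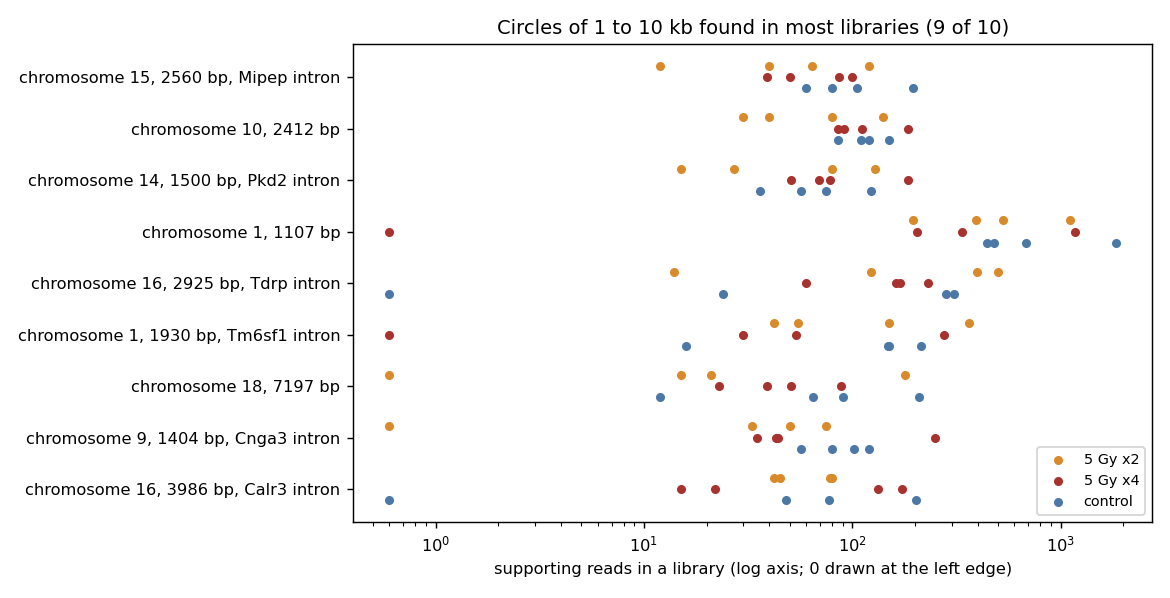
Supporting reads per library (log axis, 0 drawn at the left edge) for 9 of the 10 members found in most libraries, with 4 points per group for 5 Gy x2, 5 Gy x4 and control. In each row the points of the groups overlap, and the 1107 bp circle of chromosome 1 reaches 1849 reads in a control library. Where a library has several calls in an entry, its point holds only the last call listed.

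The members with most reads after the 1107 bp circle were an intronic entry of 4886 bp in Zkscan7, a zinc finger gene, at chr8:131941404-131946289, with 3330 reads, and the Tdrp entry, with 2617. An intergenic entry of 9123 bp at chrX:352738-361860 held 2396 over all calls. Its library counts were 666 and 138 in 5 Gy x2 replicates 3 and 4, 0 in all 5 Gy x4 libraries, and 12 and 108 in control replicates 2 and 3. The fifth, intergenic, at chr1:187897126-187902073, held 2180. Of the 5 longest members, 3 were in a single library, with 4, 6 and 43 reads. The one with 43 spans exons of Mab21l4 and Agxt at chr9:100285657-100295300 and was seen in 5 Gy x2 replicate 1 from split reads alone.

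To ask whether circles of this length differ with irradiation, the number per library was compared first. The number was 261, 665, 245 and 188 in 5 Gy x2 libraries, 287, 433, 608 and 231 in 5 Gy x4 libraries, and 258, 329, 331 and 236 in control libraries. The irradiated libraries span the control range on either side, and 5 Gy x2 replicate 2 and 5 Gy x4 replicate 3 stand above the rest. The mean was 340 ± 219 in 5 Gy x2, 390 ± 169 in 5 Gy x4 and 289 ± 48.8 in control skin (SD, n = 4 each). Over the 8 irradiated libraries the mean was 365 ± 183, a difference from control of 76.25 circles (two-sided exact permutation p = 0.463, adjusted p = 0.561 over 40 tests of 10 measures in 4 comparisons). Without 5 Gy x2 replicate 2, the difference between 5 Gy x2 and control turned to -57.2 circles. Counting only circles with 5 or more reads, irradiated minus control was -24.5 circles, and at a common depth of 32211 supporting reads it was -25.75, so the sign of the difference depends on how presence is called.

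The libraries differed most in circles that no other library had. Single-library members numbered 60, 500, 91 and 36 in 5 Gy x2, 111, 283, 412 and 72 in 5 Gy x4, and 105, 81, 79 and 45 in control libraries. Members found in 4 or more libraries numbered 136, 118, 118 and 112 in 5 Gy x2, 133, 122, 144 and 123 in 5 Gy x4, and 112, 169, 170 and 121 in control libraries. Single-library members were 75.2% of the members of 5 Gy x2 replicate 2, and 19.1% to 37.1% in the other 5 Gy x2 libraries.

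**Figure D3:**
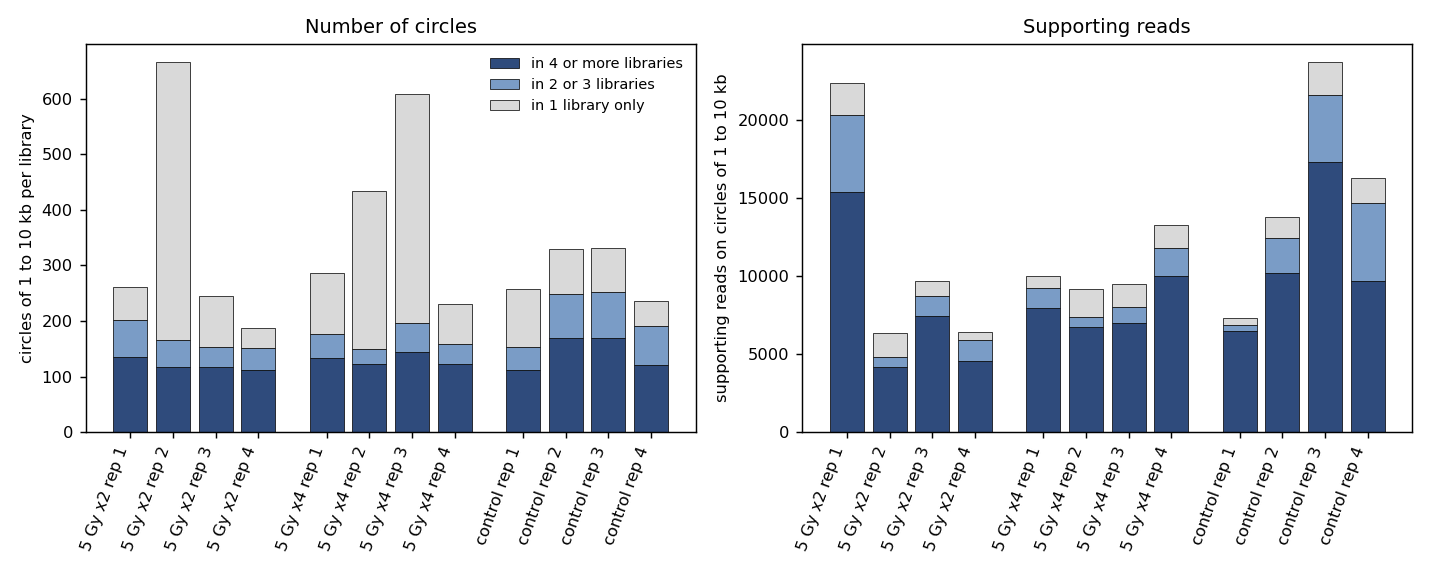
Members per library (left) and their supporting reads (right), stacked by whether the member was found in 4 or more, in 2 or 3, or in 1 of the 12 libraries; bars run from 5 Gy x2 through 5 Gy x4 to control. Single-library circles make up 500 of the 665 members of 5 Gy x2 replicate 2 and 412 of the 608 of 5 Gy x4 replicate 3, with 1549 of 6336 and 1463 of 9460 of the members' reads.

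As a share of all circles of a library, members lay lower in irradiated than in control skin, though not past the adjusted threshold of 0.05. They made up 1.37, 2.31, 0.893 and 2.97% of the circles in 5 Gy x2, 1.30, 0.968, 1.32 and 1.15% in 5 Gy x4, and 5.38, 3.48, 3.19 and 6.56% in control libraries. Every irradiated library lay below every control library. The mean was 1.54 ± 0.725% in irradiated libraries (SD, n = 8) and 4.65 ± 1.60% in control libraries (SD, n = 4), a difference of -3.12 percentage points. The exact permutation p was 0.00202, the smallest that 8 against 4 libraries can give, and the adjusted p was 0.0539. For 5 Gy x4 against control the difference was -3.47 points and for 5 Gy x2 against control -2.76 points, both with an exact p of 0.0286, the smallest that 4 against 4 can give, and an adjusted p of 0.0714. The 2 doses differed by -0.70 points (5 Gy x4 minus 5 Gy x2, exact permutation p = 0.286, adjusted p = 0.408). At the common depth, the difference between irradiated and control libraries was -3.33 points with an adjusted exact permutation p of 0.0404.

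The denominators of these shares differed between the groups. A library listed 6325 to 28756 circles in 5 Gy x2, 20123 to 46162 in 5 Gy x4 and 3600 to 10388 in control skin. Supporting reads ran from 49281 to 393501 in 5 Gy x2, from 176697 to 317553 in 5 Gy x4 and from 32211 to 191654 in control libraries, and the depth over the mitochondrial circle averaged 89123 ± 43692 in 5 Gy x2, 114976 ± 21000.3 in 5 Gy x4 and 24535 ± 17838 in control libraries (SD, n = 4 each). Total sequencing depth is unknown, and the part of depth in these shares was not tested beyond the common depth above.

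The share of supporting reads followed the same order. It was 5.68, 7.14, 3.51 and 12.98% in 5 Gy x2, 5.63, 2.89, 5.35 and 4.23% in 5 Gy x4, and 22.7, 11.9, 12.3 and 15.9% in control libraries. The 5 Gy x4 libraries all lay below the control libraries, while 5 Gy x2 replicate 4 fell within the control range. The difference was -9.77 points for irradiated against control (exact permutation p = 0.00606, adjusted p = 0.0606). With the reads of all calls of a library summed, a setting added after the data were seen, it was -11.4 points, with 6.25 ± 3.17% in irradiated libraries (SD, n = 8) and 17.6 ± 4.51% in control libraries (SD, n = 4), no overlap, an exact permutation p of 0.00202 and an adjusted p of 0.0404. On the deposited counts the difference was -11.2 points for 5 Gy x4 against control (exact permutation p = 0.0286, adjusted p = 0.0714). Set against the next shorter circles, of 420 bp to under 1000 bp, the log2 ratio of numbers was -2.36 ± 0.52 in 5 Gy x2, -2.73 ± 0.13 in 5 Gy x4 and -1.80 ± 0.11 in control libraries (SD, n = 4 each). Irradiated minus control was -0.74 on that scale (exact permutation p = 0.0101, adjusted p = 0.0673). Reads per member averaged 37.2 ± 24.7 in irradiated libraries (SD, n = 8) and 52.7 ± 21.02 in control libraries (SD, n = 4), with an exact permutation p of 0.307 and an adjusted p of 0.424.

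Within the class, median lengths lay lower in irradiated than in control skin, again short of the adjusted threshold. The 5 Gy x2 libraries had median lengths of 1456, 1442, 1320 and 1500 bp, the 5 Gy x4 libraries 1479, 1331, 1352 and 1429 bp, and the control libraries 1506, 1540, 1546 and 1722.5 bp. No irradiated library reached the lowest control library, though 5 Gy x2 replicate 4 came within 6 bp of it. The difference between irradiated and control means was -165 bp (exact permutation p = 0.00404, adjusted p = 0.0539). Members under 2000 bp made up 71.2 ± 2.22% in 5 Gy x2, 76.7 ± 4.90% in 5 Gy x4 and 64.9 ± 3.04% in control libraries (SD, n = 4 each), with the lowest irradiated library at 68.6% and the highest control library at 67.4%. That difference was 9.09 points for irradiated against control (exact permutation p = 0.00404, adjusted p = 0.0539). By length bin, members under 1200 bp averaged 110 ± 67.2 in 5 Gy x2, 135 ± 68.8 in 5 Gy x4 and 73.8 ± 13.5 in control libraries, while members of 5000 bp or more averaged 23.3 ± 9.91 in 5 Gy x2, 21.8 ± 8.26 in 5 Gy x4 and 23.8 ± 4.86 in control libraries (SD, n = 4 each).

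The genic share differed by a small margin that did not pass the adjusted threshold. Exons and introns together held 34.9, 36.5, 38.0 and 36.2% of members in 5 Gy x2, 39.4, 37.4, 40.8 and 37.7% in 5 Gy x4, and 32.9, 35.6, 33.2 and 33.5% in control libraries. The 5 Gy x4 libraries lay above all control libraries, and 5 Gy x2 overlapped them. The difference was 5.01 points for 5 Gy x4 against control (exact permutation p = 0.0286, adjusted p = 0.0714) and 3.79 points for all irradiated libraries (exact permutation p = 0.00808, adjusted p = 0.0646). Exons alone held 6.52 ± 2.35% in 5 Gy x2, 8.83 ± 1.88% in 5 Gy x4 and 6.84 ± 1.20% in control libraries (SD, n = 4 each), and irradiated against control gave an exact permutation p of 0.517 and an adjusted p of 0.608. The share labelled hconf was 28.8 ± 9.83% in 5 Gy x2, 22.7 ± 6.89% in 5 Gy x4 and 33.6 ± 2.73% in control libraries, and for 5 Gy x4 against control the exact permutation p was 0.0286 and the adjusted p 0.0714. None of the 40 tests passed an adjusted p of 0.05, and 16 had an exact permutation p of 0.05 or less before adjustment. The smallest exact p, 0.0286 for 4 against 4 and 0.00202 for 8 against 4, cannot pass this adjustment unless other tests are low too. Not passing therefore says little about whether the groups differ.

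**Figure D4:**
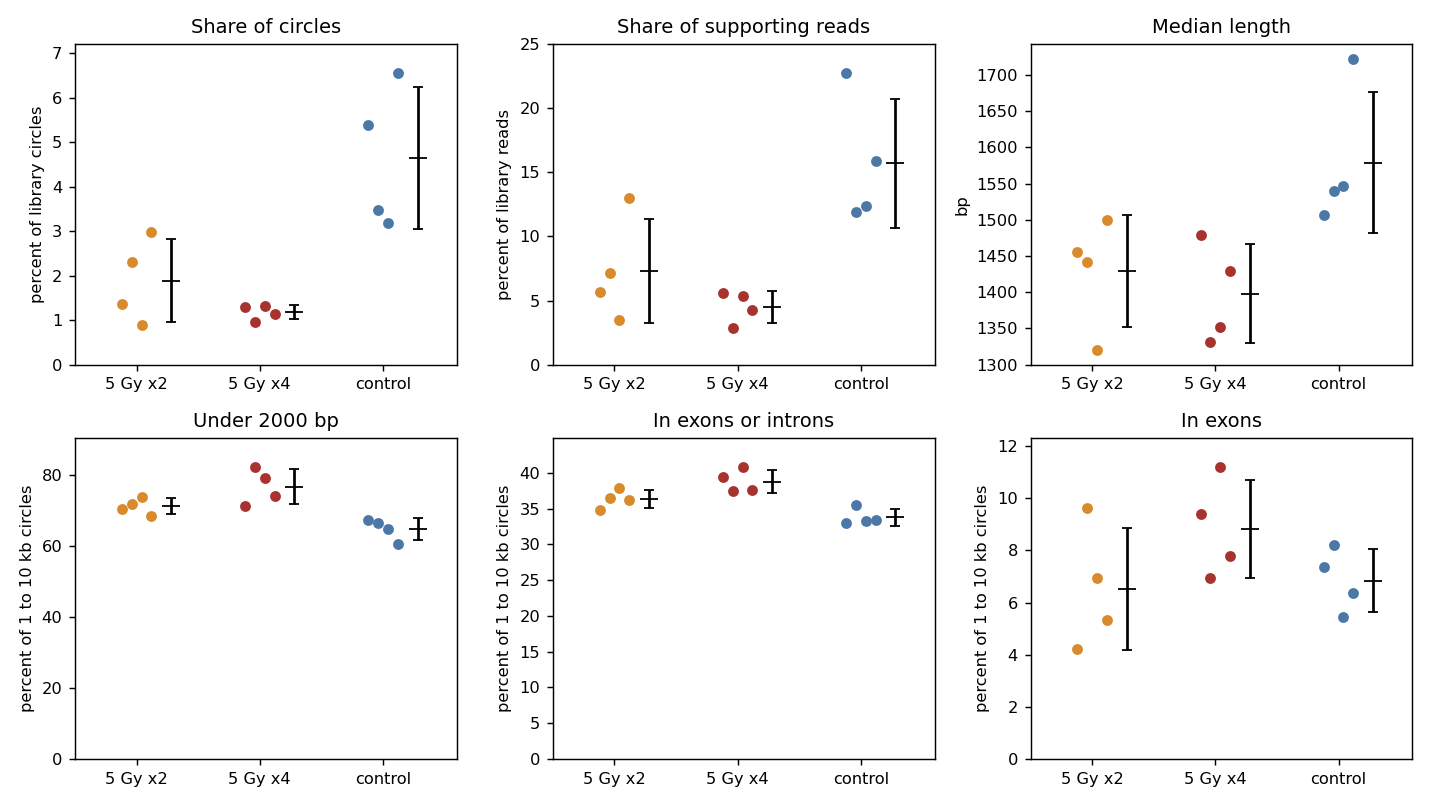
Measures of circles of 1 to 10 kb, with 1 point per library and the mean ± SD of 4 libraries beside them, for 5 Gy x2, 5 Gy x4 and control from left to right; the axis of the median length does not start at 0. Irradiated points lie below all control points for the share of circles (0.893 to 2.97% against 3.19 to 6.56%) and the median length, and above them for the share under 2000 bp.

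Most recurrent members were not tied to a group. Of the 515 shared entries, 233 were found in all 3 groups, 73 in irradiated skin only and 39 in control skin only, and 50 of the 73 were found at both doses. Among members in 4 or more libraries, 12 of 251 (4.78%) were in no control library, against 4.22% of all eccDNA in 4 or more libraries. Among members in 3 or more libraries, 7 of 342 (2.05%) were in control libraries only, against 2.99% of all such eccDNA. Neither share is far from its background, and with 8 irradiated and 4 control libraries the counts of the 2 kinds cannot be set against each other.

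The irradiated-only member in most libraries was an intergenic circle of 1089 bp at chr1:182406710-182407798. It had 62, 12, 45 and 84 reads in 5 Gy x2, 30, 0, 27 and 52 in 5 Gy x4, and 0 in all control libraries. The next, an entry of 6087 bp at chrX:155838024-155844110, was annotated to the 2 kb after Dkc1, the gene of the pseudouridine synthase dyskerin. This entry had 48, 0, 36 and 0 reads in 5 Gy x2, 7, 93, 10 and 16 in 5 Gy x4, and 0 in all control libraries. Another of the 12, an intergenic circle with precise ends at chr2:80436470-80437520, had 127 and 91 reads in 5 Gy x2 replicates 1 and 3 and 145 and 104 in 5 Gy x4 replicates 1 and 2. Of the remaining ones, 3 lay in introns of Apoo and 1 in an intron of Cdh2, the gene of N-cadherin. In the other direction, an intergenic circle of 1083 bp at chr7:77321479-77322561, labelled hconf, had 0 reads in all 5 Gy x2 and 5 Gy x4 libraries and 36, 16, 15 and 8 in control libraries. It was the only member found in all 4 control libraries and no irradiated one. A further control-only entry lay in an exon of Zfp950, a zinc finger gene, at chr1:282490903-282492230, with 12, 22 and 4 reads in control replicates 2, 3 and 4. These circles were picked for their pattern, so the pattern is given as a description. The absence is of the entry and not always of members nearby. The locus of the Dkc1 entry held 0, 5, 7 and 5 members in control replicates 1 to 4, and the Apoo locus 2, 8, 10 and 3.

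Supporting reads per circle were then tested with edgeR's quasi-likelihood test over the 729 eccDNA entries that passed its filter on low counts, of which 202 were members and 2188 members did not pass. The reads were the deposited library counts, which for members with several calls in a library hold only the last call listed. With TMM scaling, the test called 0 of the 202 members in any of the 4 comparisons. Of all 729 entries it called 0% for irradiated against control and for 5 Gy x2 against control, and 0.137% for 5 Gy x4 against control and for 5 Gy x4 against 5 Gy x2. At an unadjusted p under 0.05 it had 21 members for irradiated against control, 10.4% of those tested, against 10.3% of all entries. The median log2 fold change of tested members was -0.16 for irradiated against control, beside -0.35 over all tested entries. With the library total of supporting reads in place of TMM, those medians were -1.75 and -1.86, and 2 members were called, against 1.23% of all entries. They were the 1083 bp circle of chromosome 7 and an intergenic circle at chr4:146546126-146548373. The first passed the filter through its control counts alone, and the second through its control counts together with 1 library of 5 Gy x2. Their calls are given as a description. The second had 89 reads in 5 Gy x2 replicate 4 only and 0 in 5 Gy x4, against 387, 287, 0 and 212 in control libraries. An overlapping member with the same start, chr4:146546126-146550255, went the other way. It had 47 and 30 reads in 5 Gy x2 replicates 2 and 3, 19 in 5 Gy x4 replicate 1 and none in control libraries.

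Members were found on all chromosomes but Y, and their share of the listed circles was highest on X. On X, 152 of 6179 eccDNA entries were members (2.46%), while on the autosomes the percentage was 0.822 to 1.52%, and 1.01% over all of them. Many of the members on X lay in a few loci. Members were grouped into loci where they lay within 10000 bp of each other, and 17 of the 2098 loci held 5 or more members, 151 in all (6.32%). Of these loci 4 were on X, with 67 members. With only those members left out, X had 85 of 6112 entries in the class (1.39%). The loci were picked for holding many members, and those of the autosomes were kept. A lower percentage was therefore fixed in advance and is given as a description. Per megabase up to the last entry of a chromosome, chromosome 12 had most members (1.29) and chromosome 5 fewest among those with any (0.697). X had 0.950, inside that range, so its surplus was seen in the share of its listed circles and not in this number per megabase. The number of X copies per cell was not taken into account, so X and the autosomes cannot be compared per copy.

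The locus with most members covered 42.3 kb in introns of Apoo, which encodes a subunit of the MICOS complex of the mitochondrial inner membrane, at chrX:63559910-63602228. It held 32 members with 2306 reads, of which 16 were shared. The number of them in a library was 4, 5, 5 and 9 in 5 Gy x2, 10, 5, 5 and 6 in 5 Gy x4, and 2, 8, 10 and 3 in control libraries, with overlap of all groups. Apoo had 102 listed circles of any length, so 32 of them were members. The other X loci of 5 or more members held 15 members at and beside Dkc1 (chrX:155832226-155852754), 13 at chrX:2201069-2221875 and 7 at chrX:18213788-18231196, and an intergenic locus at chr1:148620548-148652884 held 12.

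The share of members on each of 21 chromosomes was compared between groups. No chromosome was called in any of the 4 comparisons, 0% of 21 in each, by the exact permutation test or by edgeR's quasi-likelihood test on circles per chromosome. With 4 against 4 libraries the exact test could pass the adjusted threshold only if at least 12 of the 21 chromosomes reached its smallest p, so its result there says little. Before adjustment, the exact test had 1, 2, 1 and 1 chromosomes at p of 0.05 or less for 5 Gy x2 against control, 5 Gy x4 against control, 5 Gy x4 against 5 Gy x2 and irradiated against control, and edgeR had 1, 3, 0 and 2. Chromosome 19 held 2.94 ± 0.39% of members in 5 Gy x4 and 1.65 ± 0.38% in control libraries, chromosome 14 held 2.71 ± 0.68% in 5 Gy x4 and 4.11 ± 0.73% in control libraries, and chromosome 4 held 4.39 ± 0.76% in 5 Gy x2 and 3.06 ± 0.67% in control libraries (SD, n = 4 each). In these 3 cases the groups did not overlap, the exact permutation p was 0.0286, and the adjusted p was 0.30 for chromosomes 19 and 14 and 0.60 for chromosome 4.

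Exons and introns of 772 genes held a member, which is 5.19% of the 14877 genes with a listed circle of any length. Of these genes, 709 had 1 member, 43 had 2 and 20 had 3 or more. Genes with a member had a median of 11 listed circles of any length, and genes without had 3. After Apoo, the genes with most members were Ighm, named for the immunoglobulin mu heavy chain, and AC141959.1, with 6 each, both on chromosome 6. Those of Ighm were spread over its annotated introns, with 5 within chr6:138242610-138245816 and another at chr6:138096662-138098866. Ttc28, Atp2b2, Dkc1 and the unnamed ENSRNOG00000051365 had 4 each. Zkscan7, Atxn10 and AABR07034956.1 had 3 each. The Atxn10 entries lie within chr7:126317992-126319086 and overlap almost wholly, with calls in common. AABR07034956.1 shares all its entries with the overlapping gene Arhgef18. Atp2b2 encodes a calcium pump of the plasma membrane.

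Gene lists of skin, growth control and other tissues were read against the 5.19% of all genes with a circle that held a member. Of 21 epidermal keratinocyte genes with any circle, 0 had one, and of 25 oncogenes and growth factor receptors 0. Extracellular matrix genes had 2 of 27 (7.41%), the fibronectin gene Fn1 and the collagen gene Col12a1, with 33 reads and 1 read, each in 1 library. Hair follicle and sebaceous genes had 1 of 16 (6.25%), Tchh, the gene of trichohyalin, with 37 reads in 2 libraries. DNA damage response and repair genes had 4 of 30 (13.3%), with a median of 7 circles of any length, against 3 over all genes with a circle. The 4 included Tp53bp1, which encodes a mediator of double-strand break signalling, with 2 members, of 74 reads in 1 library and 313 reads in 6. The helicase gene Wrn and the end-joining gene Xrcc4 had 1 member each, with 4 reads and 1 read, each in 1 library. In skeletal muscle genes it was 1 of 13, the dystrophin gene Dmd, with 3 members. Long neuronal genes had 9 of 23 (39.1%), among them Cntn5 with 2 members and Dlg2, Opcml and Luzp2 with 1 each. Each of these members was in 1 library, with 1 and 4 reads for Cntn5, 8 for Dlg2, 8 for Opcml and 4 for Luzp2. The long neuronal genes had a median of 47 circles of any length, against 3 over all genes with a circle, and members were 0.765% of their circles, against 1.03% over all genes.

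Members were last set against the neighbouring lengths within each library, with an exact sign-flip permutation test over 12 libraries and adjustment over 20 tests. Libraries share entries, so they are not wholly independent here. Against the 16859 entries of 420 bp to under 1000 bp, exons were the annotation of 7.40 ± 2.00% of members and 4.46 ± 1.15% of the shorter circles (SD, n = 12), higher in 12 of 12 libraries. Introns held 28.9 ± 1.86% of members and 33.0 ± 1.83% of the shorter circles, lower in 12 of 12. Chromosome X held 8.47 ± 3.40% of members and 3.12 ± 0.65% of the shorter circles, higher in 12 of 12. The exact permutation p was 0.000488, the smallest possible, and the adjusted p 0.000888 for each. The classes are set by length, and an entry typed exon need only overlap an exon, which a longer span can do more readily. How far the exonic share follows from span alone was not tested.

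Recurrence and read support were also higher than in the shorter circles. The share found in another library was 61.2 ± 19.96% for members and 41.9 ± 17.8% for the shorter circles, higher in 11 of 12 libraries (exact sign-flip permutation, adjusted p = 0.0015). An entry is the union of its calls, so sharing can itself lengthen it. With classes set by the own length of each library's call, a setting added after the data were seen, the shares were 53.7 ± 20.3% and 34.1 ± 19.7%, higher in 11 of 12 (adjusted exact permutation p = 0.00178). Sharing was still counted over the merged entries there, whose calls can have different ends. The part of merging in the recurrence share was therefore not tested. Under the same setting the exonic share was higher in 11 of 12 libraries and the intronic share lower in 11 of 12, and both still passed. Discordant pairs made up 77.9 ± 4.71% of the reads of members and 51.4 ± 10.7% of those of the shorter circles, higher in 12 of 12 libraries (exact permutation, adjusted p = 0.000888). This share rose with length over all classes, from a library median of 8.10% under 420 bp to 86.1% at 10 kb or more. Reads per circle were 1.35 higher on the log2 scale, in 12 of 12 libraries, with the same adjusted exact permutation p. The classes are set by length, and how far the discordant share and the reads per circle follow from length alone was not tested. The genic share was 36.3 ± 2.46% for members and 37.5 ± 1.28% for the shorter circles (exact permutation, adjusted p = 0.25), and the shares labelled hconf and lconf did not pass either, with adjusted exact permutation p of 0.371 and 0.236.

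Against the 203 entries of 10 kb or more, members had lower exonic, chromosome X and recurrence shares. The limit of span given above for the exonic share holds here too. Exons were the annotation of 7.40 ± 2.00% of members and 17.7 ± 6.39% of the longer circles, chromosome X of 8.47 ± 3.40% and 24.7 ± 5.51%, and the share found in another library was 61.2 ± 19.96% and 85.2 ± 6.30% (SD, n = 12), each lower for members in 12 of 12 libraries. The label hconf ran the other way, with 28.4 ± 7.94% of members and 8.28 ± 3.00% of the longer circles, higher in 12 of 12. All 4 had an adjusted exact permutation p of 0.000888.

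**Figure D5:**
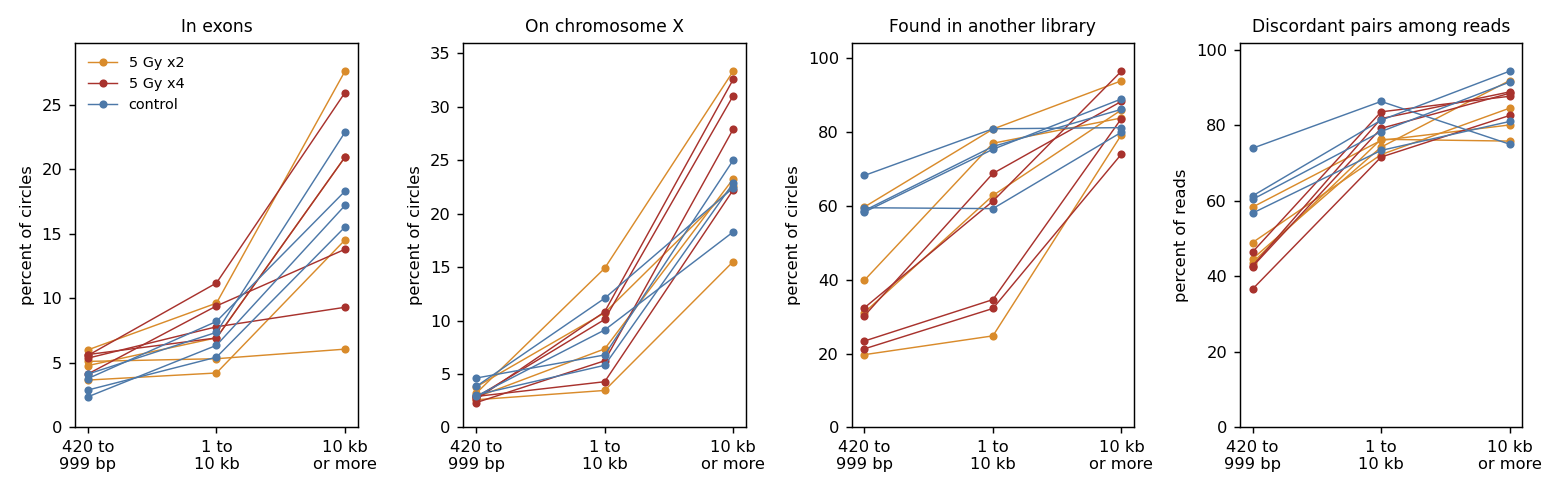
Per-library shares in circles of 420 bp to under 1 kb, 1 to 10 kb and 10 kb or more, with 1 line per library coloured by group. The exonic and chromosome X shares of members lie above those of the shorter circles in all 12 libraries and below those of the longer circles in all 12; discordant pairs make up 71.6 to 86.3% of the reads of members.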

How the data were processed

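Circular DNA of rat skin was enriched, treated with exonuclease and sequenced after a transposase library preparation, per the labels' protocols. The authors deposited, per the file headers, counts of supporting reads for each listed circle in each library, and a table with position, total counts, gene annotation and, for each call, other values such as split reads, discordant pairs, mean depth and coverage continuity. The submitters' processing notes name BWA, Picard, bedtools and the build rn6. The circle caller, its version and the merging rule: not given in the sources used here. Of the per-library columns 4 were not used. Reads are amplified and not independent molecules, so counts can vary by more than counting error, and total depth is unknown.

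A circle was present in a library with at least 1 read. The 10 measures per library were compared in 4 comparisons by two-sided exact permutation of the libraries, with Benjamini-Hochberg adjustment over 40 tests. The smallest p is 0.0286 for 4 against 4 and 0.00202 for 8 against 4. Chromosome shares were adjusted over 21 chromosomes. The edgeR test of reads per circle and the comparison of length classes were added after the data were seen. Python 3.11.15, numpy 2.4.6, pandas 2.3.3, R 4.3.3 and edgeR 4.0.16 were used, and the procedures were tested on simulated data. Members and gene lists were chosen with earlier results of these data known. The circles named are the 10 in most libraries, the 5 with most reads and the 5 longest, and the genes named are the 10 with most members and up to 4 per list. Precise, group-specific and densely placed circles were named after their values were seen. One of the 10 widespread circles and its gene are not reported here.

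Replicate numbers were checked for pairing: same-numbered libraries deviated from their group means with correlations of -0.36 to 0.59 over 122 features, so they were not taken as pairs. Alternatives covered the read minimum, a common depth, the confidence label, the upper length bound, overlapping entries, scaling and each library left out. No sequence was used, since no genome of this build was at hand. Positions are 1-based.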

Additional observations from a re-analysis of the deposited data

Results flagged for a closer look

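In 96 groups of 4 libraries that were checked, 6 values stood apart from the other 3 libraries by more than Dixon's 95% critical value. Chance alone marks about 1 in 20 groups. Of the 6, 4 belong to 5 Gy x2 replicate 2. That library held 665 members (next 261), of which 500 were in no other library (next 91), and 621 by the length of its own calls (next 209). It also held 91 members of 2000 bp to under 3000 bp (next 28). Its members had 9.53 reads each on average, and 14.4% of them carried the label hconf, the lowest values of the 12 libraries. Members of 5000 bp or more numbered 34 in 5 Gy x4 replicate 3 (next 19) and 31 in control replicate 3 (next 22).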

How the results depend on the processing

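Of 772 recomputed values, 715 kept their direction and their side of the adjusted threshold, 40 reversed, 16 passed where the reported value had not, and 1 was lost. The cause was not tested for any of them. The number of members reversed most. It differed by -46.75 (5 Gy x2 against control), -2.25 (5 Gy x4 against control) and -24.5 (irradiated against control) with at least 5 reads, and the exonic share of irradiated against control by -0.209 points. At a common depth the numbers differed by -22, -29.5, -7.5 (5 Gy x4 against 5 Gy x2) and -25.75. With hconf or conf only they differed by -38.5, -43.25, -4.75 and -40.9. Per 10000 reads the differences were -5.03, -19.3, -14.3 and -12.2, and per unit of mitochondrial depth -0.0138, -0.0140, -0.000123 and -0.0139, the last with an exact permutation p of 0.00404 and an adjusted p of 0.0404. Under hconf or conf only, 5 Gy x4 minus 5 Gy x2 was 43 bp for median length and -0.0600 points for the share under 2000 bp. The exonic share was then -0.373 (5 Gy x4 against control) and -1.42 points (irradiated against control), and the hconf share 1.59, 2.11, 0.52 and 1.85 points.

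For irradiated against control, results that came to pass had an adjusted exact permutation p of 0.0404. These were the share of circles at -3.33 points and the median length at -128 bp at a common depth, the share of circles at -2.84 points and the share under 2000 bp at 8.50 points with only circles under 5000 bp, and the share of circles at -3.07 points and the median length at -172 bp with entries overlapping by 90% counted once. Over all calls the share of reads was -11.4 points. Without the 2 libraries with most members, the number differed by -57.2 (5 Gy x2 against control) and -14.3 (irradiated), reads per member by 0.428 (5 Gy x2 against control) and the exonic share by -0.0745 points (irradiated). The last 2 settings were chosen after the data were seen.

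Leaving out each library in turn gave, for 5 Gy x2 against control, 5 Gy x4 against control, 5 Gy x4 against 5 Gy x2 and irradiated against control, numbers of -57.2 to 101.8, 28.5 to 154.2, -22.75 to 158.4 and 33.4 to 101.5. In the same order, shares of circles ran from -3.25 to -2.13, -3.96 to -2.83, -1.04 to -0.343 and -3.60 to -2.48 points. Shares of reads ran from -10.3 to -6.03, -12.5 to -8.83, -4.08 to -0.92 and -11.1 to -7.43 points. Reads per member ran from -25.0 to 0.428, -28.8 to -14.1, -20.8 to 4.58 and -23.5 to -9.16. The exonic share ran from -1.35 to 0.453, 1.20 to 2.62, 1.52 to 3.34 and 0.334 to 1.33 points. For irradiated against control, median length ran from -189 to -117 bp, the share under 2000 bp from 7.66 to 9.94 points and the log2 ratio to circles of 420 bp to under 1000 bp from -0.86 to -0.69. Only without 5 Gy x2 replicate 4 (share of circles, share of reads, median length, share under 2000 bp, log2 ratio; adjusted exact permutation p = 0.0242) or 5 Gy x4 replicate 2 (share of circles, median length, share under 2000 bp; 0.0404) did these pass. By the own length of calls, members minus circles of 420 bp to under 1000 bp came to pass for the hconf share (-7.67 points), and members minus circles of 10 kb or more no longer passed for the genic share (2.93 points). With the replicate number as a block, the irradiated share of circles differed by -3.12 points as before, and the block changed no call. With 4 pairs an exact p cannot go below 0.125. Base composition and end repeats were not run, for want of a genome of the build.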
